A study of Homo sapiens with 16 samples.

Results

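The zinc finger genes examined here were the protein-coding genes of chromosome 19 in RefSeq (GRCh38) whose symbol starts with ZNF and a digit, 250 of the 1407 genes of that chromosome and of 19630 genes tested in all. The widest gap between neighbouring transcription start sites (TSS) split them into 84 genes of 19p and 166 genes of 19q. K562 cells, a human erythroleukemia line, were fixed, and their chromatin was immunoprecipitated with an antibody against acetylated lysine 27 of histone H3 (H3K27ac), in amounts of chromatin measured as DNAchrom. In the fixed arm, 0.25 µg of antibody was added to each of 7 amounts of DNAchrom that rose from 0.31 to 20 µg, so that the titer, the antibody per DNAchrom relative to the optimum, ran from 32 down to 0.5. In the normalized arm, 7 reactions with the same amounts of DNAchrom were all at titer 1. Libraries are named by amount and titer, such as 0.31-T32, and 10-T1a of the fixed arm and 10-T1b of the normalized arm were the same condition. Each other condition had 1 library, all came from 1 untreated cell line, each arm had an input library of its own, and nothing in the labels gives separate cultures, so p-values measure only the spread between these libraries, which may be technical. Arm and input cannot be told apart, and in the fixed arm neither can titer and DNAchrom.

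Many of these genes encode proteins with a KRAB domain and an array of C2H2 zinc fingers. The fingers read DNA, often within transposable elements, and the KRAB domain recruits TRIM28 and the methyltransferase SETDB1, which deposit the silencing mark H3K9me3. The genes arose by tandem duplication, lie in clusters on both arms of chromosome 19, and H3K9me3 itself is known to cover the zinc finger exons of many of them. H3K27ac marks active promoters and enhancers, so a peak at the TSS is the usual sign of an active promoter.

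Across the 14 lists, 64083 to 82143 peaks passed a −log10 q of 2, an FDR of 1%, and the lists hold no reads. Read totals of the libraries were not used here. A TSS peak was a peak overlapping the window of 5 kb on either side of the 5′ end of the gene. As a check of the cell type, 10 of 10 erythroid genes, such as GATA1 and HBG1, had a TSS peak in all 14 lists. Of 10 lymphoid genes, 4 had none in any list, 3 had one in some lists, and 3, among them CD3D and CD79A, had one in all 14.

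Of the 250 zinc finger genes, 140 (56%) had a TSS peak in all 14 lists, where 51.8% of all genes tested had one. A further 77 genes (30.8%) had a TSS peak in no list, where 34.7% of all genes tested had none, and 33 genes (13.2%) had one in some lists. Both shares were thus near those of the genome as a whole. The other genes of chromosome 19, a gene-dense chromosome, stood at 63.4% in all lists and 21.6% in none, and the 267 ZNF genes of other chromosomes at 69.3% and 16.9%.

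In single lists, 148 to 163 of the 250 genes had a TSS peak, a share of 62.5% ± 1.72 (SD, n = 14). The share was lower than in the other chromosome 19 genes in 14 of 14 lists, with a mean difference of −7.93 percentage points (exact sign-flip permutation test, two-sided, p = 0.000122, the smallest it allows, adjusted p = 0.000366 over 9 tests). With peaks counted within 1 kb of the TSS the difference was −4.77 points, and with any RefSeq start of a gene counted, an alternative added after seeing the data, it was −3.93 points. The choice of comparison genes also set its direction. Against all other protein-coding genes the share was higher by 3.99 points (14 of 14 lists, exact permutation p = 0.000122), and against ZNF genes of other chromosomes the difference was −13.8 points. Among genes with no other protein-coding TSS within 5 kb, 215 zinc finger genes and 827 others, the shares were 62.7% and 63.4%, and the difference of −0.706 points was within the spread between lists (exact permutation p = 0.149, lower in 9 of 14 lists). On average over the 14 lists, no deficit of TSS peaks was therefore detectable in zinc finger genes that stand alone. Single lists differed in direction. In 0.31-T32 the shares were 59.1% in the zinc finger genes and 63.1% in the others, and in 20-T0.5 they were 64.2% and 62.6%. Within the fixed arm this gap widened with titer, as described below, so a deficit at high titer is not excluded.

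The arms of the chromosome differed. On 19p, 70.0% ± 1.56 of the zinc finger genes had a TSS peak in a list (SD, n = 14), and on 19q 58.7% ± 2.07. The difference of 11.2 points had the same sign in 14 of 14 lists (exact sign-flip permutation test, two-sided, p = 0.000122, adjusted p = 0.000366), and it was 7.77 points among genes with no other TSS within 5 kb, an alternative chosen after seeing the data. Counted over all lists, 56 of 84 genes of 19p and 84 of 166 genes of 19q had a TSS peak in all 14, and 21 and 56 had none.

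**Figure D1:**
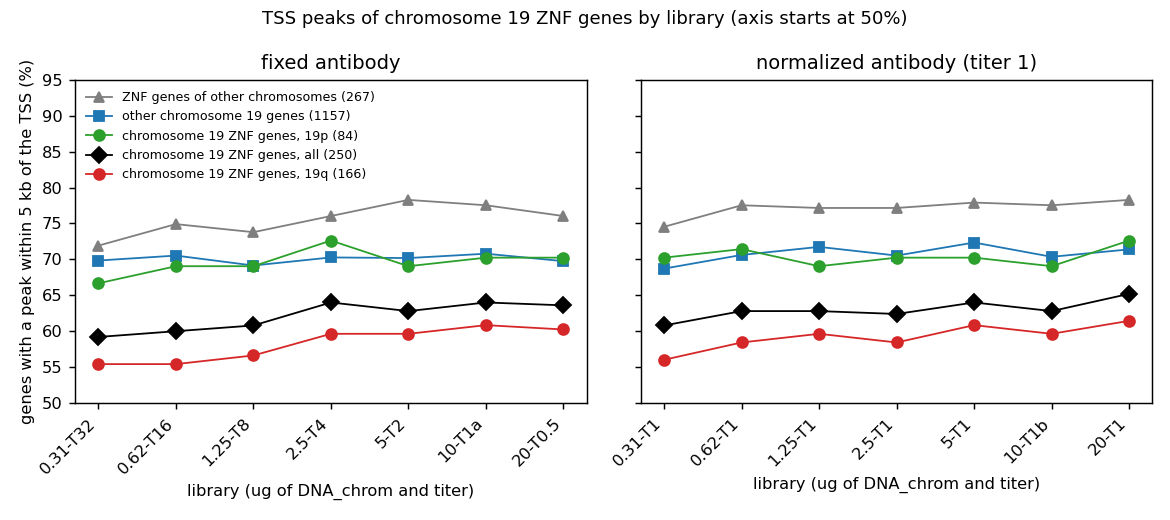
Percent of genes with an H3K27ac peak within 5 kb of the TSS in each library, with the fixed arm on the left and the normalized arm on the right; points are single libraries and the axis starts at 50%. The zinc finger genes of 19q (red) lie between 55.4% and 61.4%, below those of 19p (green) in every library, and the other chromosome 19 genes (blue) lie between 68.7% and 72.3%.

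Genes joined by steps of at most 1 Mb formed clusters, of which 9 held 5 or more members. The 5 genes from ZNF554 to ZNF77, at 2.8 to 2.9 Mb, all had a TSS peak in every list. Of the 14 genes from ZNF414 to ZNF846, at 8.5 to 9.8 Mb, 11 did. Of the 37 genes of 19.7 to 24.1 Mb next to the centromere, 22 had a TSS peak in all lists and 14 in none. The 26 genes of 36.2 to 37.8 Mb had the lowest share of the 9 clusters, with 10 in all lists and 12 in none. This rank counts the 5′ end of the gene alone. Among the 12, ZNF565, ZNF529, ZNF567 and ZNF420 had a peak at another of their starts in all 14 lists, and clusters were not ranked by such starts. The other clusters had a TSS peak in all lists at 15 of 25 genes of 11.5 to 12.6 Mb, 3 of 5 of 34.7 to 35 Mb, 10 of 24 of 43.5 to 45.1 Mb and 26 of 41 of 51.6 to 53.6 Mb. The largest cluster, 60 genes from 55.5 to 58.5 Mb, held 29 genes with a TSS peak in all lists, 19 with none and 12 of the 33 genes whose call varied.

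Some genes without a TSS peak stood side by side. The longest such run was of 7 neighbours from ZNF667 to ZNF264, which span 783.5 kb at 56439329 to 57222846 of chromosome 19. Next came 6 genes from ZNF676 to ZNF723, over 679.6 kb of 19p, and 5 genes from ZNF345 to ZNF420, over 312.9 kb of 19q. ZNF420, which ends the last of these runs, had a peak at another of its starts in all 14 lists. Of 249 pairs of neighbours, 92 pairs both had a TSS peak in all lists, 34 pairs both had none, and in 63 pairs a gene with a peak in all lists stood next to a gene with none. The numbers of pairs that the shares of such genes alone would give were not computed. Moreover, 20 members had the TSS of another member within 5 kb, so that neighbouring calls are not independent.

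**Figure D2:**
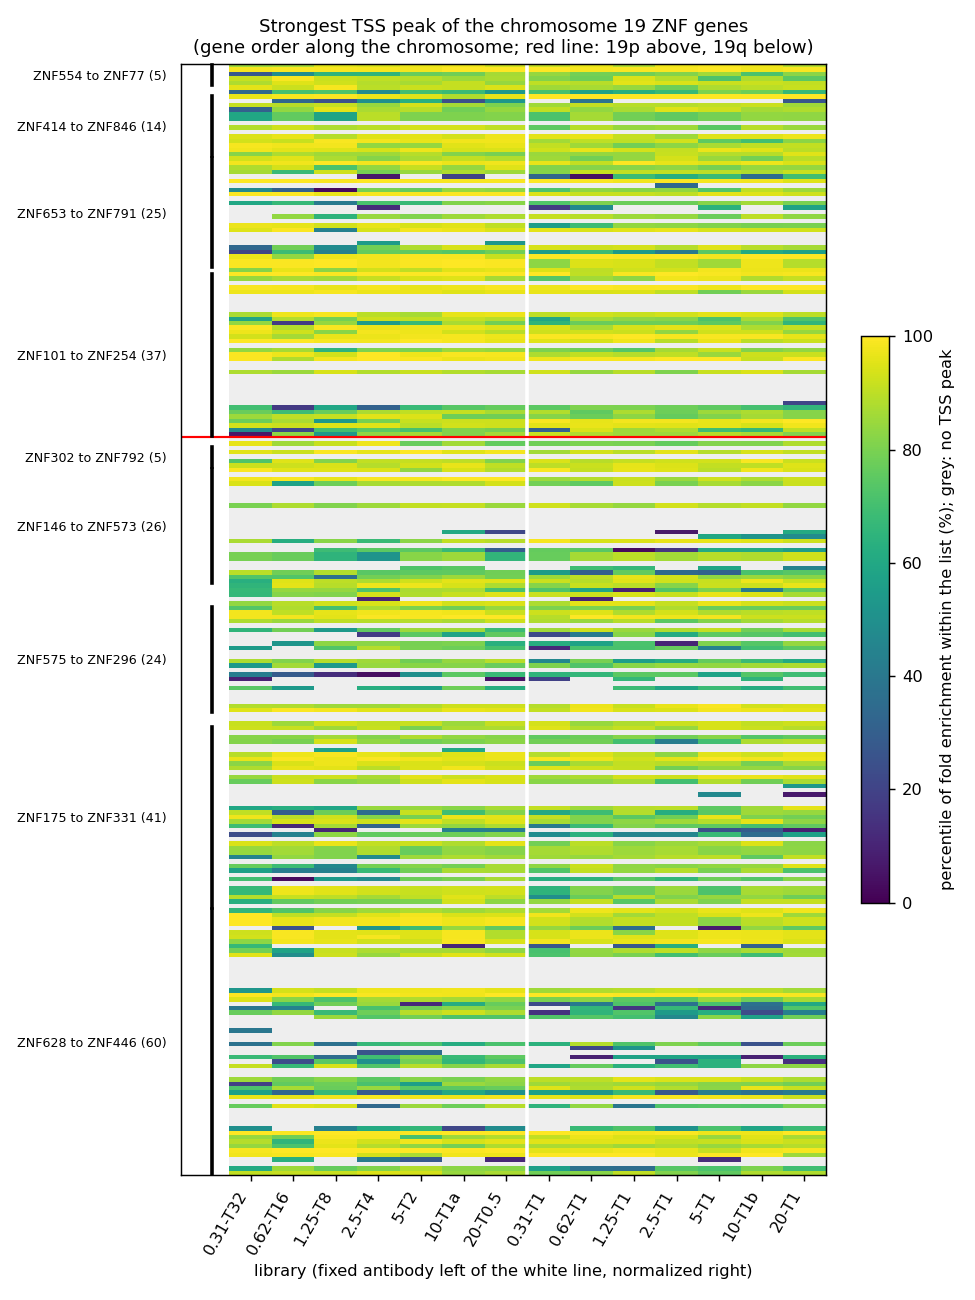
Each row is 1 of the 250 zinc finger genes in chromosomal order and each column a library; the colour gives the percentile, within that list, of the fold enrichment of the strongest TSS peak, and grey means no TSS peak. Rows are mostly coloured or grey across all 14 columns (140 and 77 genes), with blocks of neighbouring grey rows such as the 7 from ZNF667 to ZNF264; black bars mark clusters of 5 or more genes.

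Fold enrichment is the authors' ratio of ChIP signal to background at a peak, and its percentile is the share of peaks of the same list at or below it. Over the 140 genes with a TSS peak in all lists, the median percentile of the strongest TSS peak ran from 86.1 to 91.3 between lists. In the 733 other chromosome 19 genes with a TSS peak in all lists it ran from 90.6 to 93.3, higher in 13 of 14 lists. The mean over lists ranged between genes from 48.0 for ZNF587B to 99.3 for ZNF274.

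ZNF274, a KRAB protein that binds the 3′ ends of other zinc finger genes and recruits SETDB1 to them, thus had the highest mean percentile (plus strand, 58183061 to 58213562). Its fold enrichment was 11.6 at the lowest, 15.2 at the median and 25.6 at the highest of the 7 fixed lists, and 16.2, 19.9 and 24.2 in the normalized lists. The fixed list at titer 32 was the lowest of the 14 and the fixed list at titer 0.5 the highest, while its percentile stayed between 97.6 and 99.9. ZNF460 had a percentile of 97.8 or more in every list. By fold enrichment ZNF584, at up to 31.3, and also ZNF414, ZNF460, ZNF837, ZNF253 and ZNF101 rose above the highest value of ZNF274. On 19p the highest mean percentiles belonged to ZNF555 (99.1), ZNF440 (98.9), ZNF101 (98.8), ZNF253 (98.5) and ZNF414 (97.9), and on 19q ZNF837 (98.0), ZNF432 (97.4) and ZNF587 (97.0) followed ZNF460 (99.2). ZNF414 had 8.89 to 17.3 in the fixed lists and 20.9 to 27.3 in the normalized lists. Its lists of the same condition already differed, with 11.0 in 10-T1a and 23.1 in 10-T1b. Members outside this group, such as ZNF776 and ZNF383, did not overlap between arms either. The share of all genes that separate in this way was not counted.

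Repressors of transposable elements differed among themselves. ZNF91, which silences SVA and L1 elements, had a TSS peak in all lists, with a fold enrichment of 6.57 to 12.2 (median 8.55) in the fixed lists and 7.06 to 10.5 (median 8.63) in the normalized lists. ZNF93, which silences L1 elements, stood higher, at 9.28 to 17.8 (median 11.8) and 7.31 to 15.0 (median 13.5). The arms overlapped for both genes. The paralogs ZNF587 and ZNF417, which repress HERVK elements, both had a peak in all lists, but ZNF587 had a mean percentile of 97.0 and ZNF417 of 74.2. ZNF808, which represses MER11 elements and is needed for the pancreas to form, had a peak in all lists (mean percentile 80.9). By contrast ZNF534, which binds HERVH elements, had none in any list, and ZNF528 had one in 5-T1 and 20-T1 only, with fold enrichments of 4.54 and 3.44.

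Members with other roles also fell on both sides. ZNF473, a factor of histone pre-mRNA processing (mean percentile 90.3), ZNF146, a protein of zinc fingers with no KRAB domain (93.9), ZNF296 (95.8), ZNF224, a repressor of aldolase A (74.7), ZNF649 (80.8) and ZNF85 (71.0) had a TSS peak in all lists. No list had a TSS peak at ZNF536, a gene of the nervous system, the imprinted ZNF331, ZNF154, whose promoter is known to be methylated in many tumours, ZNF568, whose mouse counterpart represses a placental Igf2 promoter, ZNF43 or ZNF420, which modulates p53. ZNF112, ZNF114, ZNF132 and ZNF135 likewise had none.

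For some of the 77 genes the 5′ end of the RefSeq gene was not the only start. The RefSeq promoter table gave a start for 65 of them, and 11 had a peak within 5 kb of another of their starts in at least 1 list, 7 of them in all 14 lists (ZNF442, ZNF565, ZNF529, ZNF567, ZNF420, ZNF320 and ZNF749, named after their values were seen). At ZNF420 this other start lay 70320 bp into the gene, and the peak there had a median percentile of 83.2. The other start of ZNF565 lies at the TSS of its neighbour ZNF146, so that the peak cannot be given to either gene. Counting any start, 153 genes had a peak in all lists and 66 in none, and 62 of the 77 genes had no peak anywhere in the gene in any list.

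RefSeq promoters of 300 bases (250 before and 50 from the TSS, GRCh38.p14) matched the 5′ end of 182 of the 250 genes and of 13792 genes in all. The following 8 are shown because they hold the short sequence CCGGAAG, which of the 7 motifs searched stood highest relative to its share of all promoters, at genes with a TSS peak in all lists (ZNF274, ZNF808, ZNF611, ZNF91, ZNF85) and in none (ZNF534, ZNF568, ZNF132). They were chosen after these values were seen. Capitals mark CCGGAAG, the core of sites for ETS factors such as GABPA, or its reverse complement CTTCCGG, and each promoter is written 5′ to 3′ in the direction of transcription.
ZNF274 (GRCh38.p14, chr19:58182811-58183110, plus strand): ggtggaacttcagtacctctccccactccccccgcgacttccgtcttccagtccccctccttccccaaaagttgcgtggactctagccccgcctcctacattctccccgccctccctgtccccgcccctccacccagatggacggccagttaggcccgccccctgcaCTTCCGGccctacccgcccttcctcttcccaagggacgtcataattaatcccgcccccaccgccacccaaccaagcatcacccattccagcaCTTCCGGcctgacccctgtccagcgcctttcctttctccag
ZNF808 (GRCh38.p14, chr19:52527418-52527717, plus strand): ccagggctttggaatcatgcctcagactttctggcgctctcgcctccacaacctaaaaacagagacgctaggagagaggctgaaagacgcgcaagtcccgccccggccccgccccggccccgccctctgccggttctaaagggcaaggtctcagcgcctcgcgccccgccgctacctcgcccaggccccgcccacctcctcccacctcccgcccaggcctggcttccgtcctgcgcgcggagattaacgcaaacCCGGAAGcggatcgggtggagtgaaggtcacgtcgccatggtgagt
ZNF611 (GRCh38.p14, chr19:52734995-52735294, minus strand): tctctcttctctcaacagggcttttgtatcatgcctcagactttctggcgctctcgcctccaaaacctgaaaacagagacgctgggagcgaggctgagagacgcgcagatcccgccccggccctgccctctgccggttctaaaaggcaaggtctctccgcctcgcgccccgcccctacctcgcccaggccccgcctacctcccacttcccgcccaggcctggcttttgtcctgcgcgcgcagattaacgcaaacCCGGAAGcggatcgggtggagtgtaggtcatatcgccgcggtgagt
ZNF534 (GRCh38.p14, chr19:52428898-52429197, plus strand): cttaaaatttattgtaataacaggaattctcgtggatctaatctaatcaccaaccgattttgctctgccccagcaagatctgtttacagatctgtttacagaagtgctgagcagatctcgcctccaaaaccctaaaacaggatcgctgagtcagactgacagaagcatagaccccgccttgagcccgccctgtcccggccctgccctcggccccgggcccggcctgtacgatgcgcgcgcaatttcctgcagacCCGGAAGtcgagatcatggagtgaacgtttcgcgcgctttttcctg
ZNF91 (GRCh38.p14, chr19:23395422-23395721, minus strand): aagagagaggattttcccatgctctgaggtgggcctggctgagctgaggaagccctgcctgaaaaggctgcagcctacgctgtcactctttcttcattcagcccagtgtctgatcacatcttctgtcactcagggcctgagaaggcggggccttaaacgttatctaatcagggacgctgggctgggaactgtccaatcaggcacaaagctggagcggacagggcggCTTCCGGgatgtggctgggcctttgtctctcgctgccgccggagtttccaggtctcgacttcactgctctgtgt
ZNF85 (GRCh38.p14, chr19:20923001-20923300, plus strand): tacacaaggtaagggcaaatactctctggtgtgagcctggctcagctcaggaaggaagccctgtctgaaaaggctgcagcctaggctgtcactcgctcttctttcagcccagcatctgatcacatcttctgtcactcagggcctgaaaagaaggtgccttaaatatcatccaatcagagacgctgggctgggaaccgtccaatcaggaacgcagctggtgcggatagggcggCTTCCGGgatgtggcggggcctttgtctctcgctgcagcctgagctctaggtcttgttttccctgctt
ZNF568 (GRCh38.p14, chr19:36916082-36916381, plus strand): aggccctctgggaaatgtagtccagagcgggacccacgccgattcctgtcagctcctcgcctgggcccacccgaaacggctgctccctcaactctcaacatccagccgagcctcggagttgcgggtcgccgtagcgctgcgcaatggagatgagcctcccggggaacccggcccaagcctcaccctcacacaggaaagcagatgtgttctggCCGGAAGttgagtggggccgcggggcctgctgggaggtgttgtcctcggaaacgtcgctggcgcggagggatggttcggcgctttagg
ZNF132 (GRCh38.p14, chr19:58440104-58440403, minus strand): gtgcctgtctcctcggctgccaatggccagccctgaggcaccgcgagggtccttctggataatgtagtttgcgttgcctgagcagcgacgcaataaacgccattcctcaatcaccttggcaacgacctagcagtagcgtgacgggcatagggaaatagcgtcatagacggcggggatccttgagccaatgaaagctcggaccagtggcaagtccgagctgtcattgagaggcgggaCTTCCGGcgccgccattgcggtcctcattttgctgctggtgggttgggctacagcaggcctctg

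CCGGAAG, searched on both strands with overlaps allowed, was held by 83 of the 182 zinc finger promoters (45.6%), by 13.2% of 865 other chromosome 19 promoters, by 33.7% of 184 promoters of ZNF genes elsewhere and by 14.6% of all 13792 promoters. Of its 94 occurrences in the zinc finger promoters, 74 began within 50 bases of the TSS. Over both arms together the motif was in 45.1% of 113 promoters with a TSS peak in all lists, 50% of 22 with one in some and 44.7% of 47 with one in none. The arms went opposite ways, with 31.9% of 47 promoters with a peak in all lists and 5 of 9 with none on 19p, and 54.5% of 66 and 42.1% of 38 on 19q. In the other chromosome 19 genes the same shares were 18.0%, 5.04% and 3.37%. A match of letters is a description and not a bound site.

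Some promoters held the motif at the same position. In 11 promoters, all in the cluster of 51.6 to 53.6 Mb, CCGGAAG began 4 bases after the TSS on the gene's own strand. Of these genes 10 had a TSS peak in all 14 lists and 1, ZNF534, had none. In the whole cluster 26 of 41 genes had one in all lists, and whether the position of the motif goes with the peak was not tested. The readthrough gene ZNF765-ZNF761 and ZNF765 share their start, so that these genes have 10 distinct promoters. Over the last 100 bases, read without gaps, the promoter of ZNF808 was identical to that of ZNF611 at 91% and to that of ZNF534 at 57% of positions. Over all 300 bases the values were 52% and 37.3%. The part of such shared sequence in the peak calls was not tested.

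CpG content differed between the arms too. The ratio of observed to expected CpG over the 300 bases had a median of 0.761 in zinc finger promoters with a TSS peak in all lists and of 0.745 in those with none. In the other chromosome 19 genes the medians were 0.830 and 0.311. The median G and C content was 61.3% and 58.3% in the zinc finger promoters and 65.7% and 55.3% in the others. Within the arms, the zinc finger medians of the CpG ratio were close on 19q, at 0.816 in 66 promoters with a TSS peak in all lists and 0.802 in 38 with none. On 19p they were further apart, at 0.605 in 47 promoters and 0.419 in 9.

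The promoters of the arms differed as well. CCAAT, the site of the factor NF-Y, was in 51 of 60 promoters of 19p (85.0%) and in 46 of 122 promoters of 19q (37.7%), beside 37.1% of all promoters. CCGGAAG was in 35.0% of the promoters of 19p and 50.8% of those of 19q. The median ratio of observed to expected CpG was 0.582 on 19p and 0.813 on 19q, so that the arm with more TSS peaks had the promoters poorer in CpG. In all, 7 short motifs were searched. GGGCGG, a site of the SP factors, was in 65.4% of the zinc finger promoters and 58.5% of all promoters.

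**Figure D3:**
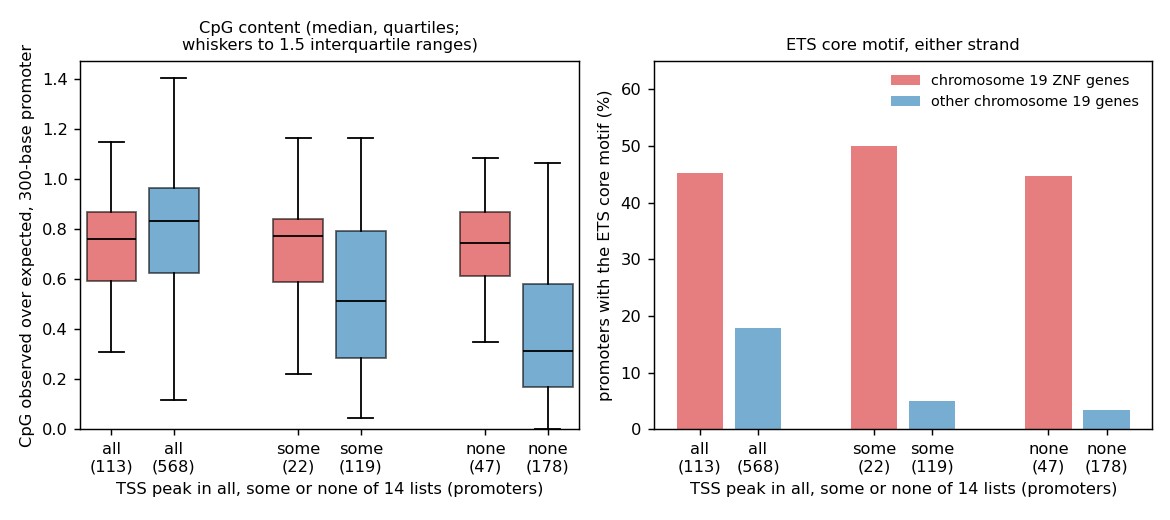
Left, ratio of observed to expected CpG in 300-base promoters (boxes are quartiles with the median, whiskers reach 1.5 interquartile ranges); right, percent of promoters with the ETS core motif on either strand, by whether the gene had a TSS peak in all, some or none of the 14 lists, with the number of promoters in brackets. Zinc finger genes of both arms together (red) have medians of 0.745 to 0.773 and shares of 44.7% to 50% in the 3 groups, while the other chromosome 19 genes (blue) fall from 0.830 to 0.311 and from 18.0% to 3.37%.

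Around the TSS the peaks of the zinc finger genes were compact. In the 140 genes with a TSS peak in all lists, the median width of the strongest peak ran from 581 to 1236 bp between lists, and in the 733 other chromosome 19 genes from 849 to 2056 bp, wider in each list. Peaks covered a median of 909 to 1865 bp of the 10 kb window at the zinc finger genes and of 2254 to 4728 bp at the others. The contrast was as large among genes with no other TSS within 5 kb, where coverage was 875 to 1816 bp in 120 zinc finger genes and 2074 to 4446 bp in 452 others.

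The peaks also sat close behind the TSS. Among the same 140 and 733 genes, 83.2% of the zinc finger genes (median of 14 lists, range 64.3 to 88.6) and 77.9% of the others were inside a peak at 500 bp downstream. At 2 kb downstream the shares were 19.6% and 46.0%, and at 2 kb upstream 9.64% and 35.4%. The summit lay downstream of the TSS in 78.6% of the zinc finger genes (median list) and in 60.6% of the others. Among genes with no other TSS within 5 kb the contrast was smaller, at 80.8% and 67.3%. Of the 140 and of the 733 genes, fewer were inside a peak at the TSS itself, 38.2% and 47.5%, than at 500 bp on either side. The zinc finger genes were lower still just upstream in lists such as 10-T1a, with 33.6% at 100 bp upstream and 44.3% at the TSS.

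**Figure D4:**
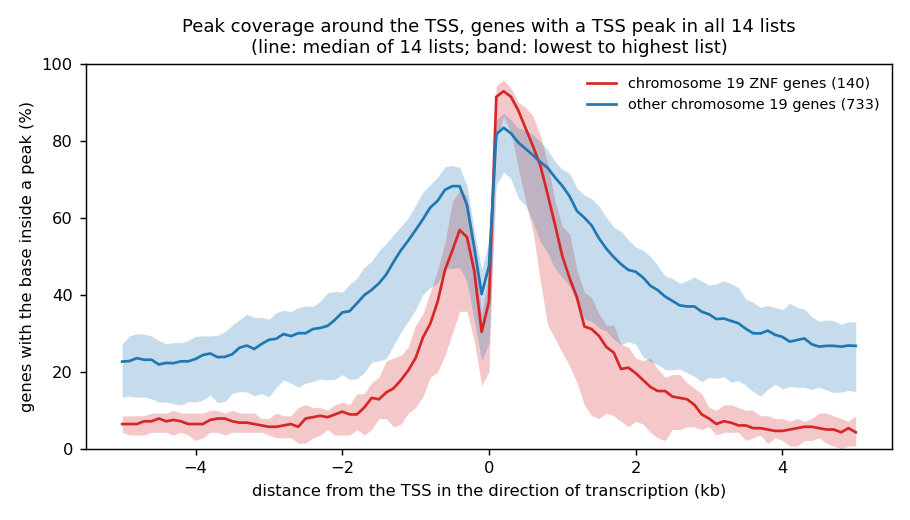
Percent of genes with a base inside a peak, by distance from the TSS in the direction of transcription, for the 140 zinc finger genes (red) and 733 other chromosome 19 genes (blue) with a TSS peak in all 14 lists; lines are the median of the lists and bands the lowest to the highest list. The zinc finger genes rise at least as high just behind the TSS and fall off sooner, to 19.6% against 46.0% at 2 kb downstream.

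Beyond 5 kb of any protein-coding TSS, H3K27ac peaks covered little of the bodies of the zinc finger genes. Between 0.585% and 1.96% of their 5908641 bases were inside a peak, against 4.93% to 11.2% in the other chromosome 19 genes. The log2 ratio of the covered shares was −2.60 on average and below 0 in 14 of 14 lists (exact sign-flip permutation test, two-sided, p = 0.000122, adjusted p = 0.000366). Over whole gene bodies, TSS windows included, the ratio was −1.79. ZNF genes of other chromosomes had a share as low, 0.702% to 2.16%. Against them the log2 ratio, added after seeing the data, was −0.17 (below 0 in 14 of 14 lists, exact permutation p = 0.000122), so the low coverage was not particular to chromosome 19.

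Of 237 zinc finger genes with body bases left, 159 had none of them inside a peak in any list. The same count for other genes is not given here, so this number is not read as particular to zinc finger genes. The largest share was that of ZNF584, 43.9% to 59.1% of its body between lists. ZNF574 had 18.7% to 54.3%, and another of its own starts, 7689 bp into the gene, had a peak within 5 kb in all 14 lists. The readthrough gene ZNF816-ZNF321P had 11.4% to 34.8%, and ZNF611 had 10.6% to 33.8%.

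**Figure D5:**
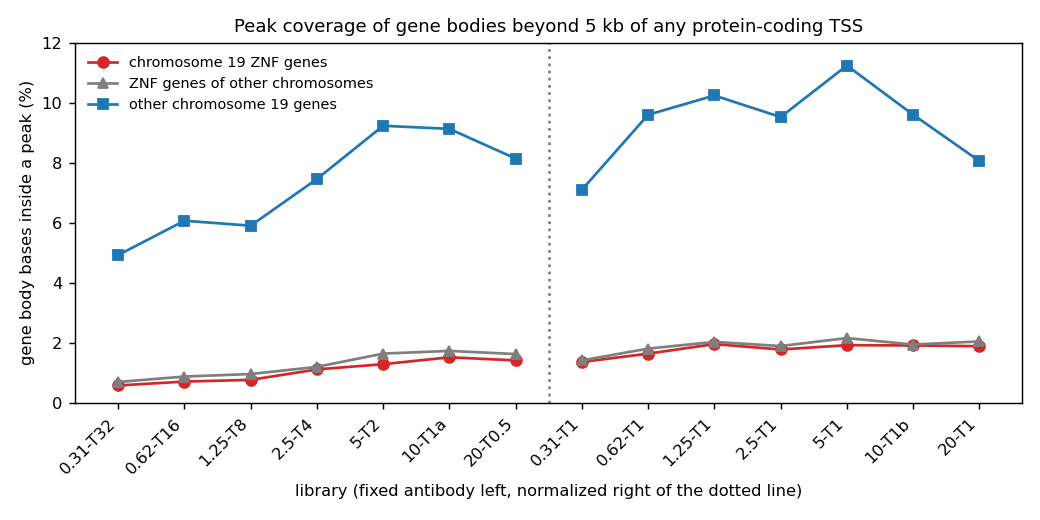
Percent of gene body bases, beyond 5 kb of any protein-coding TSS, that lie inside a peak in each library, for zinc finger genes of chromosome 19 (red), ZNF genes of other chromosomes (grey) and other chromosome 19 genes (blue). Both sets of ZNF genes stay at or below 2.16% in all 14 libraries, and the other chromosome 19 genes lie between 4.93% and 11.2%.

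The fixed arm asks whether excess antibody changes which zinc finger promoters are found. The lists at titers 32, 16 and 8 had a TSS peak at 148, 150 and 152 of the 250 genes, and those at titers 4, 2, 1 and 0.5 at 160, 157, 160 and 159. The 3 lists of highest titer were the lowest of the arm and did not overlap the others. Over the 7 lists the share fell with log2 titer (Pearson's r = −0.887, exact permutation test, two-sided, p = 0.0127, adjusted p = 0.0229; Spearman's rho = −0.793, exact permutation p = 0.0413). Without the lists farthest from the median titer, 0.31-T32 and 20-T0.5, r was −0.859 over 5 lists (exact permutation p = 0.1), and without 0.31-T32 alone it was −0.817 (exact permutation p = 0.0667).

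Among the other chromosome 19 genes, 808, 816 and 800 had a TSS peak at titers 32, 16 and 8 and 807 to 819 at the lower titers, so there the lists overlapped. In wider sets they did not. The ZNF genes of other chromosomes stood at 71.9%, 74.9% and 73.8% at titers 32, 16 and 8 and at 76.0% to 78.3% at the lower titers. All other protein-coding genes stood at 56.7%, 57.8% and 57.6% and at 58.2% to 59.3%. The fall was therefore not particular to the zinc finger genes of chromosome 19, and gaps to these wider sets were not tested against titer. The gap between zinc finger genes and the other chromosome 19 genes was −10.6, −10.5 and −8.34 points at titers 32, 16 and 8 and −7.38 to −6.15 at the lower titers, and it widened with titer (r = −0.888, exact permutation p = 0.00913, adjusted p = 0.0205; rho = −0.893, exact permutation p = 0.0123). Without 0.31-T32 and 20-T0.5, r was −0.796 (exact permutation p = 0.1). Among genes with no other TSS within 5 kb, an alternative added after seeing the data, r was −0.883 (exact permutation p = 0.0107). The number of peaks moved with titer too, from 64083 at titer 32 to between 73612 and 81930 at titers 4 and below. When every list was reduced to its 64083 peaks of lowest p-value, the share still fell with titer (r = −0.933, exact permutation p = 0.00397).

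In the normalized arm the titer stayed at 1 and DNAchrom rose. The share was lowest at 0.31 µg (152 genes) and highest at 20 µg (163 genes), with 156 to 160 genes in between. It rose with log2 DNAchrom (r = 0.815, exact permutation p = 0.025, adjusted p = 0.0375; rho = 0.741, exact permutation p = 0.0690), but this rested on the ends, since r was 0.313 over 5 lists without 0.31-T1 and 20-T1 (exact permutation p = 0.65). At a −log10 q of at least 5 it also missed the threshold (r = 0.747, exact permutation p = 0.0536). Leaving out 0.31-T1 alone gave r = 0.683 (exact permutation p = 0.167), and leaving out 20-T1 alone gave 0.682 (exact permutation p = 0.133). The list 0.31-T1 was also the lowest of the arm in the comparison sets. Its shares were 68.7% in the other chromosome 19 genes (70.4% to 72.3% in the rest of the arm) and 74.5% in ZNF genes elsewhere (77.2% to 78.3%). In all other protein-coding genes its share was 56.9% (58.6% to 59.8%).

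Between the arms at matched DNAchrom, the normalized list had more zinc finger genes with a TSS peak at 5 of 6 amounts, by 1.27 points on average, which did not pass the test (exact sign-flip permutation test, two-sided, p = 0.156, adjusted p = 0.176). With only peaks of −log10 q of 5 or more the average was 4.2 points and did not pass either (exact permutation p = 0.125). At the 3 smallest amounts, 9, 10 and 9 genes were found in the normalized list alone and 5, 3 and 4 in the fixed list alone. At 2.5 µg the order was the opposite, with 3 and 7 genes, and at 5 and 20 µg there were 5 and 7 genes in the normalized list alone and 2 and 3 in the fixed list alone. At 10 µg, where both lists were at titer 1, the numbers were 2 and 5.

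The median percentile of the 140 constant TSS peaks was lower in the normalized than in the fixed list at 6 of 6 amounts, by 1.08 points on average (exact sign-flip permutation p = 0.0312, the smallest it allows, adjusted p = 0.0402). The same difference at 10 µg, between lists of the same condition, was −2.17 points, larger than at any of the 6 amounts. With equal list sizes the average over the 6 amounts was −2.18 points (exact permutation p = 0.0312). With only peaks whose −log10 q was 5 or more, the average was −1.72 points and did not pass (exact permutation p = 0.219). The median percentile did not move detectably with titer within the fixed arm (r = −0.574, exact permutation p = 0.182, adjusted p = 0.182; rho = −0.536, exact permutation p = 0.236; r = −0.612 without 0.31-T32 and 20-T0.5, exact permutation p = 0.25), but it fell with titer at a −log10 q of at least 3 (r = −0.766, exact permutation p = 0.0448) or 5 (r = −0.877, exact permutation p = 0.00873).

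Few single genes followed the arms. Over the 5 amounts at which the fixed titer exceeded 1, 8 zinc finger genes (3.2%) had a TSS peak in at least 2 more normalized than fixed lists, where 2.67% of all genes tested did. In the other direction there were 4 genes (1.6%), where 1.72% of all genes tested did, so both shares were close to their background. ZNF491 had a TSS peak in all 7 normalized lists, with fold enrichments of 3.20 to 6.85, and in 2 fixed lists, at 3.42 and 3.76. ZNF221 had one in 7 normalized and 4 fixed lists, the latter all at titer 4 or below, and ZNF17 in 7 and 5. In the other direction, ZNF558 had one in 6 fixed and 2 normalized lists and ZNF211 in 6 and 3. At 3 further genes the peaks were few, with 2 normalized lists at ZNF416, 4 fixed and 1 normalized at ZNF324B, and 2 fixed at ZNF530. The fold enrichment did not exceed 8.86 in any list at these 8 genes, and the highest percentile was that of ZNF17 in the list at titer 8, 85.1.

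Genes whose call varied had weaker TSS peaks than the constant genes, as is largely built into a split by the same q cutoff. The 33 such genes included 4 found in a single list and 5 found in 13. Where found, their median percentile within a list ran from 29.8 to 74.7, below that of the constant genes in each list, and 8 to 23 of them were found per list, fewest in 0.31-T32.

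Genes for the cofactors through which KRAB proteins act had TSS peaks in these cells. Of 23 corepressor genes, 20 had a TSS peak in all 14 lists, where 51.8% of all genes tested had one. Among them were TRIM28 (median percentile 94.3), SETDB1 (95.2) and CBX3 (99.3), which encodes an HP1 protein. The lowest median percentile among the 20 was that of PPHLN1 (81.6). ATF7IP and ATRX had one in 13 lists each, absent from a fixed list, and UHRF1 in 1 list.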

How the data were processed

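H3K27ac ChIP-seq of K562 cells was represented by 14 peak lists, 7 per arm; the 2 input libraries had no list. Reads were aligned with BWA 0.5.9 (CASAVA 1.4 upstream) according to the submitters' processing notes, and the authors called peaks with MACS2 in each library separately. For each peak the authors deposited the fold enrichment as a ratio, the p-value and q-value as −log10, and a score, which was not used. The deposited −log10 q reached down to 1.30, so peaks of at least 2 (an FDR of 1%) were kept. The labels give hg38, and positions pass the GRCh37 ends of 7 chromosomes, so GRCh38 was taken as the build and coordinates were left as they are.

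Genes were the protein-coding genes of RefSeq GRCh38.p14 on chromosomes 1 to 22 and X; a strand was known for 19630 of 19974, from the RefSeq promoter table (219 zinc finger genes) or by symbol from GENCODE v44 (31 genes). Members, gene lists and named genes were chosen with earlier results of these data known. Named genes were, by rule, the 5 of each arm with the highest mean percentile, up to 4 in each direction between the antibody arms, the 4 with the most covered bodies, 20 of known role, and up to 4 without a TSS peak. The last were to be ranked by zinc fingers, but no protein sequences were at hand, so they were taken by symbol. The motifs, the printed promoters and the other starts were chosen after values were seen.

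Trends were tested by exact permutation of Pearson's r over 5040 pairings, and differences by exact sign flips over 16384 patterns of 14 lists or 64 of 6 pairs, with Benjamini-Hochberg adjustment over 9 tests. Tests and coverage counts were checked on simulated data (Python 3.11.15, numpy 2.4.6, pandas 2.3.3). The 14 lists give 1 library per condition, which limits the precision. Alternatives were the lists as deposited, −log10 q of 3 and 5, equal list sizes of 64083 peaks, a 1 kb window, linear scales, single arms, other comparison genes, other starts and leaving out each library or amount.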

Additional observations from a re-analysis of the deposited data

Results flagged for a closer look

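In 0.31-T1, the normalized list with the least DNAchrom, the median percentile of the 140 constant TSS peaks was 86.1, and its distance to the next of the 7 normalized lists was 0.69 of the whole range of the arm. This was the only library to stand apart in this way among 6 measures checked in both arms, and chance gives about 1 such call in 20 groups. The same list had the fewest peaks of its arm, 68137, and the part of list size in its percentile was not tested.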

How the results depend on the processing

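Each of the 9 tests was repeated under alternatives, 155 values in all, of which 139 kept their direction and their side of 0.05. The difference between 19p and 19q and the gene body ratio held under all 24 and 22 of theirs, and the gap against titer under all 16. The gap to other chromosome 19 genes turned to 3.99 points against all other protein-coding genes, by that choice of genes, and was −0.706 points (exact permutation p = 0.149) among genes with no other TSS within 5 kb. The fall of the share with titer had r from −0.979 to −0.817 when each list was left out, and lost its call without 0.31-T32. The rise with DNAchrom had r = 0.747 at a −log10 q of 5 (exact permutation p = 0.0536) and 0.682 to 0.919 when each list was left out, and lost its call without 0.31-T1 or without 20-T1. The percentile passed 0.05 against titer at a −log10 q of 3 (r = −0.766) or 5 (r = −0.877) and on a linear scale (r = −0.778), but had r = −0.150 with equal list sizes. Its difference between arms was −1.72 points at a −log10 q of 5 (exact permutation p = 0.219) and −1.28 to −0.868 when each amount was left out, where 5 pairs cannot give an exact permutation p under 0.0625. Except where construction is named, the cause of these changes was not tested. Other starts, leaving out 4 readthrough or divergent genes, and genes with no neighbouring TSS for 19p and titer were added after seeing the data and changed no call. The libraries carry no replicate numbers, so the arms were paired by amount of DNAchrom. The lists hold no reads and read totals were not used here, so the part of depth in a missing peak was not tested.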
